A study of Mus musculus with 18 samples.

Results

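The 9 genes described here are adipokines, which are proteins that fat cells release, and the receptors of one of them: Adipoq (adiponectin), Lep (leptin), Retn (resistin), Cfd (adipsin, also called complement factor D), Rbp4 (retinol binding protein), Rarres2 (chemerin), Nampt (visfatin), Adipor1 and Adipor2. They were chosen by name, as 9 of the 25209 genes listed in each library's table, and the choice was made with earlier results of these data known. The RNA-seq libraries were made from polyadenylated RNA of mouse 3T3-L1 cells, an established fibroblast line that converts to fat cells after hormonal induction. The 18 libraries were 3 each of Control, MCE1, MCE2, Day4, Day6 and Day8. No genotype or vector separates the groups, which differ in stage and in exposure to the inducing agents. Post-confluent cultures, 2 days after reaching confluence, were given insulin at 10 µg/mL, 0.25 µM dexamethasone (a glucocorticoid) and 0.5 mM IBMX (an inhibitor of cAMP breakdown) for 48 h in medium with 10% serum. Afterwards they were kept in 5 µg/mL insulin. MCE stands for mitotic clonal expansion in the series title, the round of cell division that follows induction. No hour is stated for its stages MCE1 and MCE2. The labels also do not say when Control cells were taken relative to confluence, nor whether replicates were separate cultures, so each p-value measures only the spread between these samples.

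Adiponectin is a hormone made almost solely by fat cells. It assembles into multimers in the endoplasmic reticulum, and after release it binds AdipoR1 and AdipoR2, membrane proteins of the progestin and adipoQ receptor family that act through the adaptor APPL1, the kinase AMPK and PPARα and that have ceramidase activity. Leptin reports the size of the fat stores to the brain, adipsin is the protease that starts the amplification loop of the alternative complement pathway, resistin is linked to insulin resistance in mice, chemerin attracts leukocytes, and NAMPT makes the NAD precursor nicotinamide mononucleotide. In the 3T3-L1 line these genes are widely used as marks of conversion, and PPARγ and C/EBPα are the factors best known for switching several of them on.

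Levels are TPM, shares of a library's transcripts scaled to gene length, which can be compared between genes of a library. TPM keeps no read depth, so depth is unknown and only the spread over 3 libraries limits precision. Values are given as mean ± SD (n = 3) and positions in the mm9 build counted from 1. Over all listed genes the TPM of a library added up to between 869497 and 880273, and Pearson's r of log2(TPM + 1) over genes was 0.976 to 0.991 between libraries of a group and 0.811 to 0.976 between groups. The 12 fat cell markers, among them Plin1 (perilipin) and Fabp4, had a summed TPM of 149 to 165 in Control, 18790 to 19850 at Day4, 30810 to 32450 at Day6 and 26280 to 28760 at Day8. The 10 preadipocyte and fibroblast markers had 10300 to 10620 in Control, 5456 to 5803 at MCE1, 4962 to 5262 at MCE2 and 8377 to 11450 at Day8. At Day8 against Control 5 of the 9 tested were lower and 3 higher, with a median of -0.86. Acta2 (smooth muscle actin) had 995.7 ± 71.3 TPM in Control and 15.6 ± 2.37 at Day8, while Col1a1 (collagen) had 1235 ± 68.9 TPM in Control and 3569, 2289 and 2186 TPM at Day8. Of 13 macrophage markers, Ptprc, Adgre1, Itgam and Tyrobp were listed at 0 in every library, and the summed TPM of the 13 was 6.71 to 21.5. Of the 13, 4 had at least 1 TPM in every Control library and 2 in every Day8 library. In bulk RNA a smaller share of fat cells and less RNA per fat cell cannot be told apart, which touches every level below.

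Of the secreted genes, 4 went from 0 or a low level in Control to the 135 most abundant genes at Day8, while the receptors were present throughout. Adipoq, Retn and Cfd were listed at 0 in all 3 Control libraries and averaged 3594, 1249 and 2991 TPM at Day8. Rarres2 went from 1.12 to 934 TPM and Nampt from 30.3 to 229 TPM. Lep reached only 5.21 TPM. Rbp4 stayed at or near 0 and was the 1 member that did not pass the filter on low values, which was at least 1 TPM in at least 3 libraries. Changes were tested with limma on log2(TPM + 1) over all 12695 genes that passed, and a gene was called at a Benjamini-Hochberg adjusted p under 0.05. In the F test over the 6 groups 8 of 8 members tested were called, against 87.6% of all genes tested.

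Against Control, 6 members were called at MCE1, all higher, where 51.4% of all genes tested were called in either direction and 22.0% were called higher. At MCE2 there were 7, of which 6 were higher and Adipor1 was lower (background 62.5%, and 23.4% higher). At Day4 there were again 7, 6 of them higher, with Adipor1 lower (background 69.0%, and 29.7% higher). All 8 were higher at Day6 (background 69.7%, and 30.2% higher) and at Day8 (background 71.4%, and 31.7% higher). These 5 comparisons share the Control libraries. Lep passed the filter only through its Day6 and Day8 libraries, and Adipoq, Retn and Cfd, at 0 in Control, only through later groups. The filter thus partly fixed that these genes count as higher than Control, and Lep as higher at Day6 than at Day4. Between successive groups, 6 members were higher at MCE2 than at MCE1 (background 42.8%, and 17.7% higher). From MCE2 to Day4, 5 were higher and both receptors lower (background 51.6%, and 29.6% higher). From Day4 to Day6 all 8 were higher (background 25.7%, and 14.5% higher). From Day6 to Day8, Lep, Cfd and Adipor1 were higher and Retn lower (background 21.7%, and 10.1% higher). The counts in either direction thus stand against a background in which most genes moved relative to Control. Without rescaling, 42.9% of the genes called at MCE1 and 37.4% of those called at MCE2 were higher than in Control. After median-ratio scaling of the libraries the share was 54.1% at MCE1 and 3932 of 7858 genes called at MCE2, and the median log2 difference of all genes at MCE2 moved from -0.17 to -7.725e-05.

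**Figure D1:**
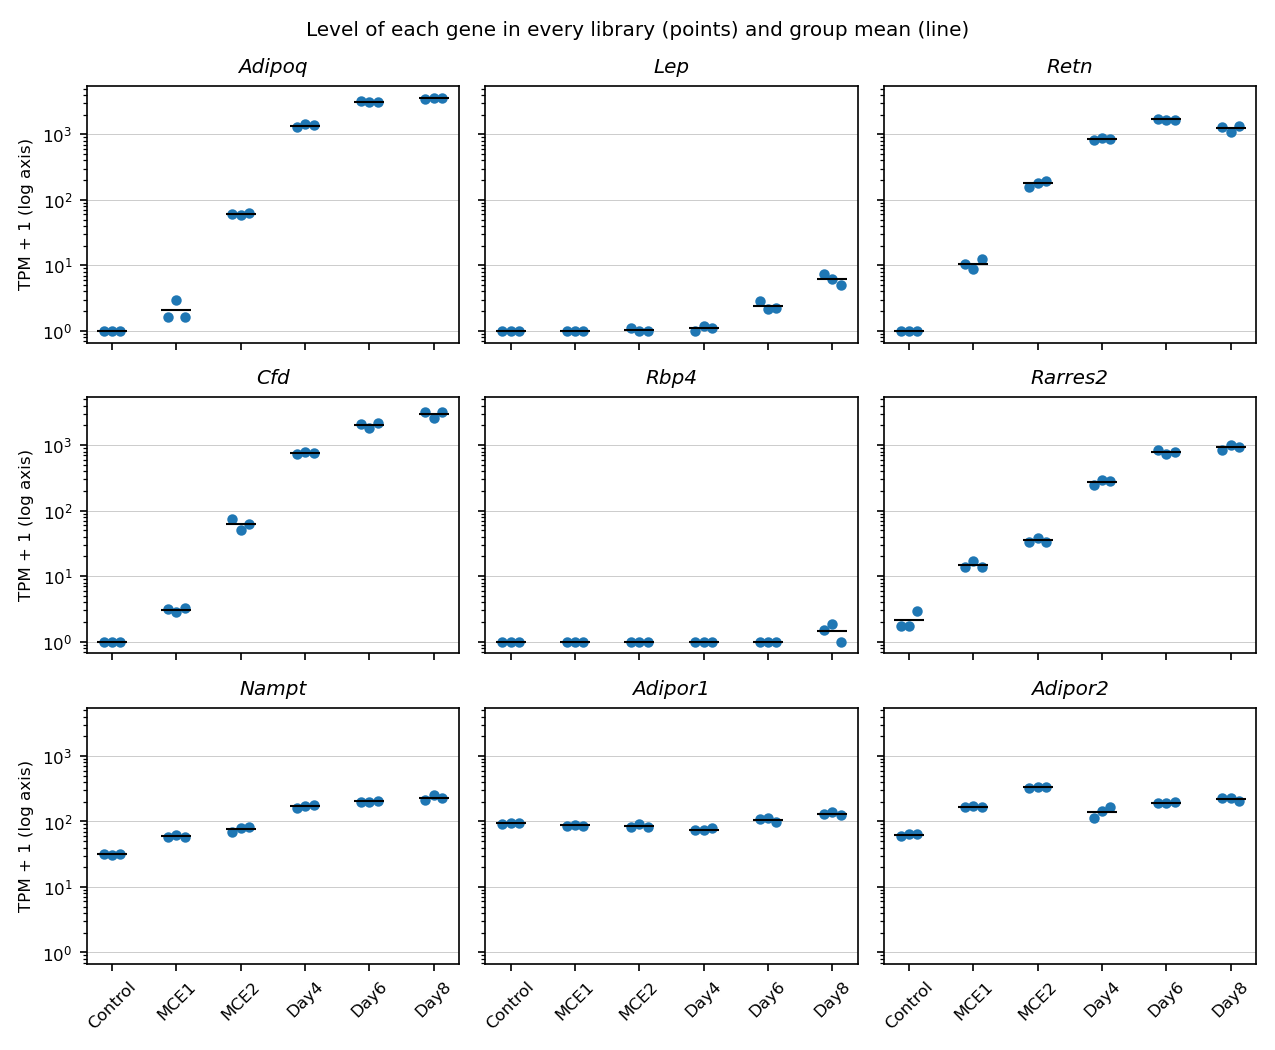
TPM + 1 on a log axis for each of the 9 genes, with the 6 groups on the horizontal axis, 1 point per library and a line at the group mean. Adipoq, Retn and Cfd go from 0 in Control to at least 1099 TPM at Day8, Lep and Rbp4 stay under 7 TPM, and the receptors lie between 58.7 and 336.7 TPM in every library.

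Adipoq encodes adiponectin and lies at chr16:23146609-23158041. It was listed at 0 in the 3 Control libraries, at 0.622, 1.98 and 0.645 TPM at MCE1 and at 60.9, 57.9 and 63.1 TPM at MCE2. It then read 1304, 1419 and 1369 TPM at Day4, 3267, 3123 and 3111 TPM at Day6 and 3518, 3637 and 3626 TPM at Day8. No range of a group overlapped that of another group. By mean TPM it was the 86th gene of the library at Day4, the 11th at Day6 and the 10th at Day8. Adipoq was higher at MCE2 than at MCE1 by 4.95 on the log2 scale (SE 0.16, adjusted p 2.44e-12), at Day4 than at MCE2 by 4.47 (adjusted p 7.70e-12) and at Day6 than at Day4 by 1.22 (adjusted p 3.05e-05). The step from Day6 to Day8 was 0.18 (adjusted p 0.450) and was not called. That step was called only without MCE1 replicate 2, the library at 1.98 TPM, with an adjusted p of 0.00935 (0.00935 to 0.866 over 26 alternatives), and its sign turned under quantile normalization (-0.05).

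Cfd, the complement protease adipsin, lies at chr10:79353598-79355400. It was listed at 0 in each Control library and at 2.15, 1.84 and 2.27 TPM at MCE1. It read 73.0, 49.0 and 61.1 TPM at MCE2, 724, 798 and 753 TPM at Day4, 2141, 1809 and 2169 TPM at Day6 and 3210, 2606 and 3157 TPM at Day8. Each group lay above all earlier groups with no overlap. The last step was called too: Cfd was higher at Day8 than at Day6 by 0.55 on the log2 scale (SE 0.12, adjusted p 0.00353). At Day6 Cfd stood at 68.2% of its Day8 mean, whereas Adipoq stood at 88.1% of its own.

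Retn, which encodes resistin, lies at chr8:3655770-3659818 in 15 libraries, and in the 3 Control libraries its listed end was 3658095. Whether that shorter entry bears on its value of 0 in Control was not tested. It read 9.62, 7.68 and 11.5 TPM at MCE1, 158, 180 and 193 TPM at MCE2, 832, 882 and 840 TPM at Day4, 1736, 1653 and 1673 TPM at Day6 and 1290, 1099 and 1356 TPM at Day8. Of the fat cell hormones listed at 0 in Control it had the highest level at both MCE stages, and it was the 1 secreted gene whose mean was lower at Day8 than at Day6. The 3 Day8 libraries all lay below the 3 Day6 libraries. The difference was -0.44 on the log2 scale (SE 0.11, adjusted p 0.00803) and lost its call only with array weights (-0.42, adjusted p 0.0590). Over 26 alternatives the adjusted p ran from 0.00190 to 0.0590. Day8 still exceeded Day4 by 0.55 (adjusted p 0.000603, with 44.8% of all genes called between those groups).

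The balance of resistin to adiponectin transcripts shifted over the course. Within a library the ratio of Retn to Adipoq TPM was 2.60, 3.11 and 3.05 at MCE2, 0.638, 0.621 and 0.614 at Day4, 0.531, 0.529 and 0.537 at Day6 and 0.367, 0.302 and 0.374 at Day8. At MCE1, with Adipoq at only 0.622 to 1.98 TPM, the ratio was 15.5, 3.89 and 17.8. Resistin transcripts outnumbered adiponectin transcripts in every MCE1 and MCE2 library and were fewer in every later one. The ranges of the 4 groups from MCE2 on did not overlap. The log2 ratio of TPM + 1 was lower at Day8 than at MCE2 by -3.06 and than at Day4 by -0.85, each with an exact two-sided permutation p of 0.1 before and after adjustment over these 2 comparisons. With 3 against 3 libraries 0.1 is the smallest p this test can give.

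Lep, the leptin gene, lies at chr6:29010221-29023876 and appeared late, as the last of the members that passed the filter to exceed 1 TPM. It was listed at 0 in every Control and MCE1 library, at 0.0927, 0 and 0 TPM at MCE2 and at 0, 0.199 and 0.0957 TPM at Day4. It then read 1.85, 1.15 and 1.25 TPM at Day6 and 6.49, 5.09 and 4.06 TPM at Day8. The Day8 libraries lay above the Day6 libraries, and these above all others. Lep was higher at Day6 than at Day4 by 1.13 (SE 0.15, adjusted p 3.94e-05; 3.05 with a pseudocount of 0.1) and at Day8 than at Day6 by 1.35 (adjusted p 1.65e-05). Its highest mean was 5.21 TPM, which made it the 9398th gene by level at Day8, where Adipoq was the 10th.

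Rarres2, the chemerin gene, lies at chr6:48519695-48522801 and was already listed above 0 in Control, at 0.704, 0.716 and 1.94 TPM. It read 12.9, 16.1 and 12.8 TPM at MCE1, 32.6, 37.5 and 32.4 TPM at MCE2, 243, 291 and 285 TPM at Day4, 839, 724 and 780 TPM at Day6 and 854, 1008 and 942 TPM at Day8. The 6 groups did not overlap in range and followed the order of the stages. It was higher at MCE1 than in Control by 2.86 (SE 0.17, adjusted p 6.66e-10), at MCE2 than at MCE1 by 1.24 (adjusted p 1.69e-05) and at Day4 than at MCE2 by 2.96 (adjusted p 1.08e-09). The step from Day4 to Day6 was 1.51 (adjusted p 6.50e-06), and that from Day6 to Day8 was 0.26 (adjusted p 0.300) and not called. Its locus overlaps Lrrc61, and 28.4% of the 50-base stretches of its transcripts also occur in transcripts of that gene, so reads could be split between them. Lrrc61 had 3.63 ± 1.17 TPM in Control, where Rarres2 had a mean of 1.12. At Day8 Lrrc61 had 17.9 ± 5.35 TPM and Rarres2 a mean of 934. How the reads were split was not tested.

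Nampt, the enzyme of NAD salvage that is also released as visfatin, lies at chr12:33505200-33538234, overlaps Gdap10 and was the secreted member with the highest level in Control. It read 30.6, 29.4 and 31.0 TPM in Control, 56.2, 61.8 and 56.3 TPM at MCE1 and 67.1, 79.4 and 81.6 TPM at MCE2. It read 158, 171 and 179 TPM at Day4, 199, 201 and 205 TPM at Day6 and 209, 249 and 229 TPM at Day8. The groups did not overlap and followed the order of the stages, over a span of 2.87 log2 units. Nampt was higher at MCE1 than in Control by 0.91 (SE 0.08, adjusted p 4.86e-08), at MCE2 than at MCE1 by 0.38 (adjusted p 0.000798) and at Day4 than at MCE2 by 1.15 (adjusted p 6.16e-09). The smaller step from Day4 to Day6 was 0.25 (adjusted p 0.0241) and was not called without Day4 replicate 1 (adjusted p 0.108) or without Day6 replicate 1, 2 or 3 (0.0501, 0.0507 and 0.0679), with 0.00859 to 0.108 over 26 alternatives. From Day6 to Day8 it was 0.18 (adjusted p 0.112), called only without Day8 replicate 1 (adjusted p 0.0471, with 0.0471 to 0.342 over the alternatives).

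Rbp4, the plasma carrier of retinol, lies at chr19:38191110-38199301 in 17 libraries. It was listed at 0 in 16 libraries and at 0.482 and 0.842 TPM in Day8 replicates 1 and 2. In Day8 replicate 1 its listed end was 38199811. Day8 replicate 3 was at 0, so the group overlapped all others. It did not pass the filter and so was not among the genes tested. With no filter Rbp4 was called higher at Day8 than in Control (adjusted p 0.00769) and than at Day6 (adjusted p 0.0290), with 2 of 3 Day8 libraries above 0.

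**Figure D2:**
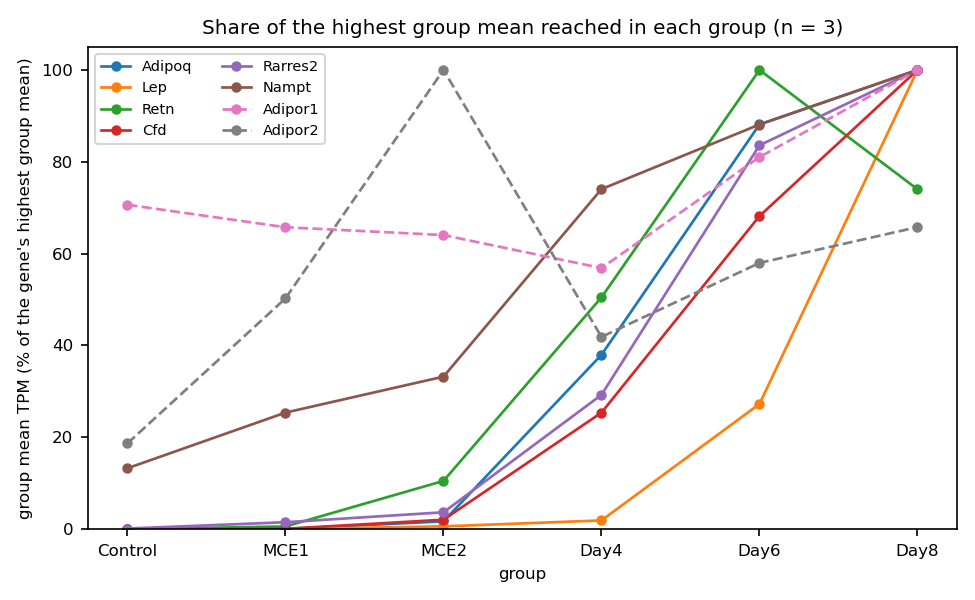
Group mean TPM of each gene that passed the filter, as a percentage of its own highest group mean, over the 6 groups (n = 3 libraries each). At MCE2 the fat cell hormones stand at 0.593% (Lep) to 10.5% (Retn) of their highest mean and Adipor2 is at its highest, and at Day4 Nampt has reached 74.0%.

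Summed over the 7 secreted genes, the level was 31.5 ± 1.43 TPM in Control, 84.8 ± 4.11 at MCE1, 409 ± 19.8 at MCE2, 3417 ± 150 at Day4, 7878 ± 340 at Day6 and 9002 ± 362 TPM at Day8. At Day8 this was 1.03% of all listed TPM. The make-up of the sum changed more than once. Nampt was 96.5% of it in Control and 68.5% at MCE1. Retn was the leading gene at MCE2 with 43.2%, followed by Nampt with 18.6%. From Day4 on Adipoq led with 39.9%, 40.2% and 39.97% at Day4, Day6 and Day8. Over the same 3 groups the share of Cfd went from 22.2% to 25.9% and 33.2%, and that of Retn from 24.9% to 21.4% and 13.9%.

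**Figure D3:**
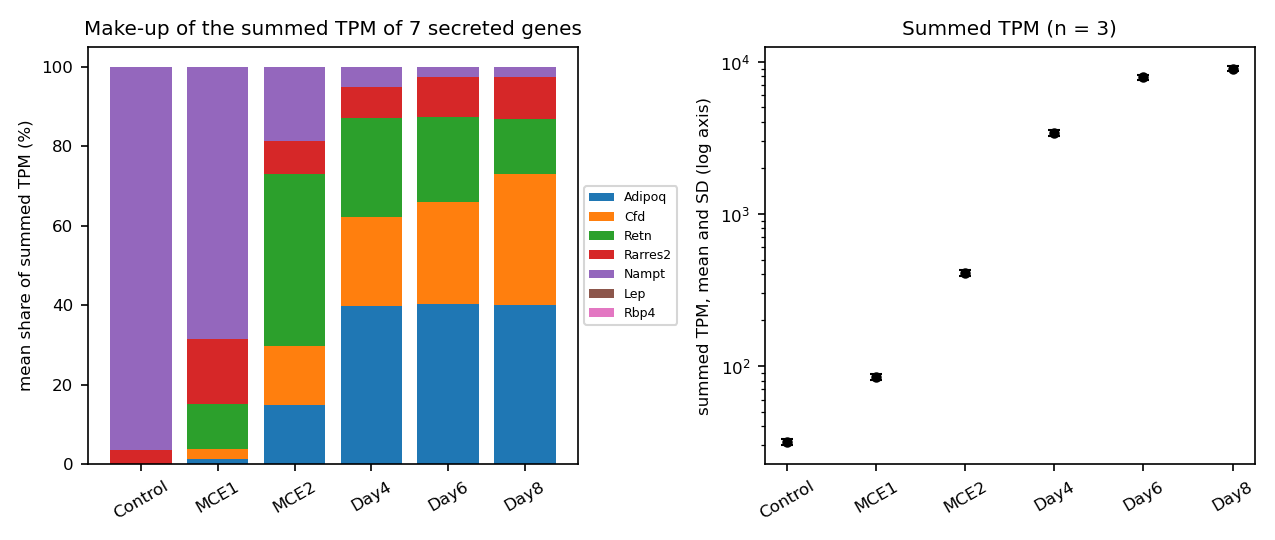
Left, mean share of each gene in the summed TPM of the 7 secreted genes by group, with bars starting at 0; right, the summed TPM on a log axis with mean and SD of 3 libraries. Nampt fills 96.5% of the Control bar, Retn 43.2% of the MCE2 bar and Adipoq 39.97% of the Day8 bar, while the sum goes from 31.5 to 9002 TPM.

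The sequences upstream of the start sites are shown because these hormones appeared at different stages and to different levels. RefSeq windows of GRCm38.p6 were matched for 8 of the 9 members by symbol, and the 250 bases before the start site are printed for 4 hormones, 5′ to 3′ on the gene's strand. Their positions are chr16:23146286-23146535 for Adipoq, chr6:29059971-29060220 for Lep, chr8:3655520-3655769 for Retn and chr10:79890603-79890852 for Cfd, all on the plus strand. Capitals mark matches, on either strand, to the motifs searched. These were TTNNGNAA, the form that factors of the C/EBP family bind, and CCAAT, the element known for binding the factor NF-Y. The others were TATAAA, which is the core element read by the TATA-binding protein, and the E-box CACGTG, known for basic helix-loop-helix factors. The GC box GGGCGG, known for Sp1, and the nuclear receptor direct repeat with 1 spacing base were searched as well.
Adipoq: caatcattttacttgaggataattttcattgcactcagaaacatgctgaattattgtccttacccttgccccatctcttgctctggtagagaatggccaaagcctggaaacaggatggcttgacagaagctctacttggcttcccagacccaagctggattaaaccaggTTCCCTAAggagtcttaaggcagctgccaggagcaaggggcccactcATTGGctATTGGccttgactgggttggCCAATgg
Lep: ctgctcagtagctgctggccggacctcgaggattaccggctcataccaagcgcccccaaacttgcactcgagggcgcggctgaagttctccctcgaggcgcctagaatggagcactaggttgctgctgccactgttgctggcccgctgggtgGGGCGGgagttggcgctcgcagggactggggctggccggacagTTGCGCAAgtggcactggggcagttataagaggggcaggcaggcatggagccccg
Retn: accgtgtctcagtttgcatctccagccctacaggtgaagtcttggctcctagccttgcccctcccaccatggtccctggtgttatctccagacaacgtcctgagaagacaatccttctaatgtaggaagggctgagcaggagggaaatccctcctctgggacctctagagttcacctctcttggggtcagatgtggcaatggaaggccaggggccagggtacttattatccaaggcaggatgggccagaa
Cfd: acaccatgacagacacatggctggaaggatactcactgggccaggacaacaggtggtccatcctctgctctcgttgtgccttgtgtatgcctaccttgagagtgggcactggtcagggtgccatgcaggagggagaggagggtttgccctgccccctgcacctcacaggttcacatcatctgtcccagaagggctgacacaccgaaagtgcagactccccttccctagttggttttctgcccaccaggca

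Counted back from the start site, the Lep window holds TTGCGCAA at -55 to -48, which reads the same on both strands and is also a TTNNGNAA match. This palindrome is in 54 of all 32851 windows of that length (0.164%). The Lep window also has a GC box at -98 to -93. The Adipoq window holds a TTNNGNAA match at -81 to -74 and 3 CCAAT matches, at -34 to -30 and -27 to -23 on the minus strand and at -7 to -3 on the plus strand. The Retn and Cfd windows hold none of the motifs searched. Of all windows 36.85% hold TTNNGNAA, 33.85% CCAAT, 12.4% TATAAA, 6.02% CACGTG, 32.7% GGGCGG and 0.338% the direct repeat. The share of G and C was 48.8% for Adipoq, 65.6% for Lep, 54.8% for Retn and 57.6% for Cfd, with a median of 52.4% over all windows. The Nampt window, not printed, has 5 GC boxes and 75.6% G and C. These are matches of letters and no binding was measured.

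The group means of Adipor2 spanned 2.40 log2 units and those of Adipor1 0.81. Adipor2 (chr6:119303168-119338752) read 58.7, 63.8 and 63.9 TPM in Control, 165, 170 and 166 TPM at MCE1 and 328, 337 and 333 TPM at MCE2. It read 110, 144 and 164 TPM at Day4, 190, 191 and 197 TPM at Day6 and 225, 230 and 202 TPM at Day8. MCE2 was thus its peak and all 3 MCE2 libraries lay above every other library. Relative to Control it was higher by 1.41 at MCE1 (SE 0.10, adjusted p 5.09e-09), by 2.40 at MCE2 (adjusted p 4.75e-12) and by 1.80 at Day8 (adjusted p 9.20e-11). From MCE2 to Day4 it fell by 1.27 on the log2 scale (adjusted p 3.24e-08), and Day8 against MCE2 was -0.60 (adjusted p 5.52e-05, with 63.3% of all genes called between these groups).

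For each member the 6 group means were ranked and neighbours in that order compared. This gave 40 pairs for 8 members, of which 30 were called. The ranking used the same values as the tests, and Lep in Control and at MCE1, both at 0, could not be called. No share of all genes was computed for pairs chosen in this way. For single comparisons it ran from 21.7% (Day8 against Day6) to 71.4% (Day8 against Control), so the count is a description only. In the order of its levels Adipor2 was highest at MCE2, followed by Day8, Day6, MCE1, Day4 and Control. Day8 and Day6 were not told apart (0.18, adjusted p 0.217) although their libraries did not overlap, and this step was called only without Day4 replicate 1 (adjusted p 0.0380, with 0.0380 to 0.408 over 26 alternatives). Day6 and MCE1 differed by 0.21 (adjusted p 0.0778, background 65.7%). That difference was called without Day4 replicate 1 (adjusted p 0.00563) or Day4 replicate 3 (0.0289), with array weights (0.0326), with median-ratio scaling (0.0403) and on these 6 libraries alone (0.00264), and the adjusted p ran from 0.00264 to 0.161 over the alternatives. MCE1 exceeded Day4 by 0.28 (adjusted p 0.0205, background 63.1%), which was not called without Day4 replicate 1 (adjusted p 0.113), without MCE1 replicate 2 (0.0565) or on the 6 libraries alone (0.107), with 0.000828 to 0.113 over the alternatives. Day4 replicate 1, at 110 TPM, is the lowest library after Control.

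Adipor1 (chr1:136311955-136329927) stayed between 72.1 and 137 TPM in all 18 libraries, and its group means spanned 0.81 log2 units. It read 90.5, 93.0 and 93.9 TPM in Control, 84.6, 88.7 and 84.9 TPM at MCE1, 81.2, 89.1 and 81.2 TPM at MCE2 and 73.5, 72.1 and 77.7 TPM at Day4. It then read 109, 111 and 98.2 TPM at Day6 and 131, 137 and 125 TPM at Day8. Day4 was the lowest group and Day8 the highest, and neither overlapped any other. Adipor1 was higher at Day8 than in Control by 0.50 (SE 0.06, adjusted p 9.13e-07) and at Day6 than in Control by 0.19 (adjusted p 0.00649), and lower at Day4 by -0.31 (adjusted p 0.000157). These 3 calls held in each of 26 alternatives, although median-ratio scaling moved the Day6 difference to 0.34 and the Day4 difference to -0.16.

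The smaller differences of Adipor1 depended on the setting. At MCE1 it differed from Control by -0.10 (adjusted p 0.150) and at MCE2 by -0.14 (adjusted p 0.0419), and with median-ratio scaling both differences turned positive, at 0.01 and 0.06. The MCE2 call also ended with quantile normalization (adjusted p 0.113), on the 6 libraries alone (0.0523), and without Control replicate 1, 2 or 3 (0.0533, 0.0938 and 0.108), MCE1 replicate 1 or 3 (0.0508 and 0.0517) or MCE2 replicate 1 or 3 (0.127 and 0.132). Over the 26 alternatives its adjusted p ran from 0.00826 to 0.293. The MCE1 difference was called only with array weights (0.0307, with 0.0307 to 0.821 over the alternatives), and MCE1 and MCE2 were not told apart (adjusted p 0.642). The step from MCE2 to Day4, at -0.17 (adjusted p 0.0212), was not called without Day4 replicate 1 or 2 (0.0592 and 0.0766), without MCE2 replicate 2 (0.103) or on the 6 libraries alone (0.0564), with 0.000721 to 0.103 over the alternatives. The step from Day6 to Day8 was 0.30 (adjusted p 0.00143) and missed the threshold on the 6 libraries alone (0.0524, with 0.000398 to 0.0524 over the alternatives).

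Within each library the ratio of Adipor2 to Adipor1 TPM was 0.649, 0.685 and 0.680 in Control, 1.95, 1.92 and 1.95 at MCE1 and 4.04, 3.78 and 4.10 at MCE2. It was 1.501, 1.99 and 2.10 at Day4, 1.75, 1.72 and 2.01 at Day6 and 1.72, 1.67 and 1.62 at Day8. Adipor1 was the more abundant transcript in the 3 Control libraries and Adipor2 in the other 15. Against Control the log2 ratio of TPM + 1 was higher by 1.52 at MCE1, 2.54 at MCE2, 1.44 at Day4, 1.43 at Day6 and 1.303 at Day8. Each of the 5 had an exact two-sided permutation p of 0.1, also after adjustment, the smallest that 3 against 3 libraries can give.

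**Figure D4:**
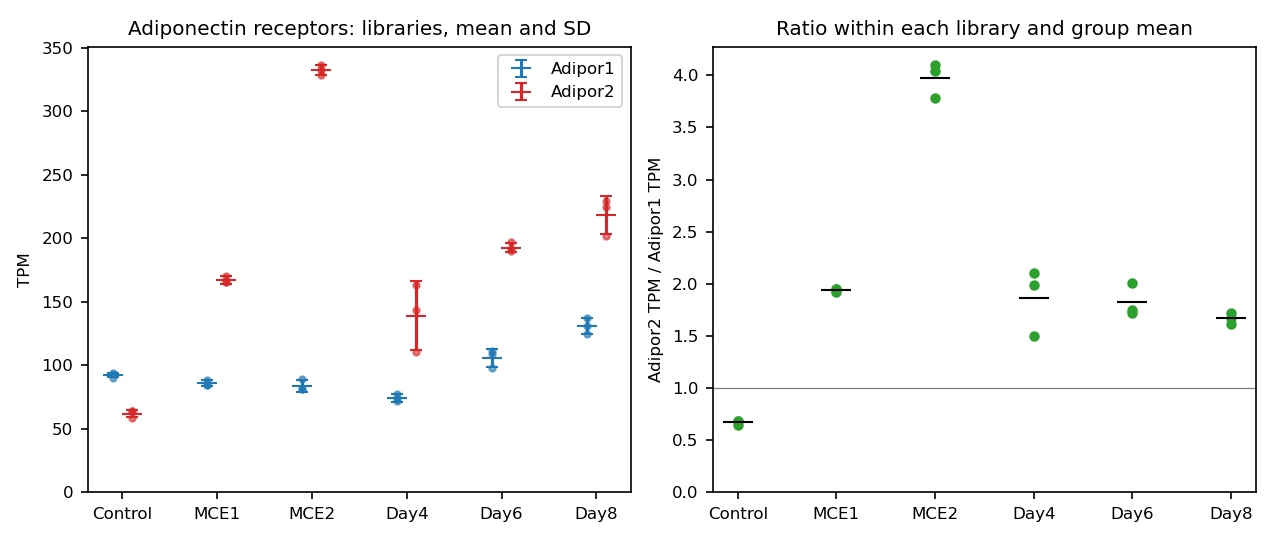
Left, TPM of Adipor1 and Adipor2 in each library with mean and SD by group (n = 3); right, the ratio of Adipor2 to Adipor1 TPM within each library, with the group mean as a line and a ratio of 1 in grey. Adipor2 peaks at MCE2 at 332.6 TPM, and the ratio lies under 1 in the Control libraries alone and reaches 4.10 at MCE2.

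The windows before the receptor genes are given for the same comparison, with capitals as above. That of Adipor1 is chr1:134415128-134415377 on the plus strand, the first of a pair of start sites in the table, and that of Adipor2 is chr6:119388735-119388984 on the minus strand.
Adipor1: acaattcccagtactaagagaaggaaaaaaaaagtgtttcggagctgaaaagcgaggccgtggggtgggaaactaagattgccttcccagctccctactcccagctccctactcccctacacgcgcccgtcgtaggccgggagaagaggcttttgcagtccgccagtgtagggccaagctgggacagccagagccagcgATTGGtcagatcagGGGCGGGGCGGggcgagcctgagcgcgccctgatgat
Adipor2: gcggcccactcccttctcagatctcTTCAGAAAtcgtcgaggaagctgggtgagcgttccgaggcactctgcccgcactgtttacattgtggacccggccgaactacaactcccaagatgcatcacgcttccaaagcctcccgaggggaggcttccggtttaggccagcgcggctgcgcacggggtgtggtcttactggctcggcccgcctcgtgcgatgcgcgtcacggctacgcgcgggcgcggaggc

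The Adipor1 window holds a CCAAT match at -51 to -47 on the minus strand and 2 GC boxes, at -37 to -32 and -32 to -27, which share a base. The Adipor2 window holds a TTNNGNAA match at -225 to -218 and no GC box. G and C made up 59.6% and 64.8% of the windows.

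The genes most like each member were taken by Pearson's r on log2(TPM + 1) over the 18 libraries, which come from 6 stages and so share the course of conversion. Among the genes closest to Adipoq were Adig (adipogenin, r = 0.996) and Pdhb (pyruvate dehydrogenase, 0.995). Among those closest to Cfd were Bckdhb (0.997) and Coq8a (0.997). Retn was closest to Pnpla2, the triglyceride lipase ATGL (0.997), Cpt2 (carnitine palmitoyltransferase, 0.997) and Pex11a (a peroxisomal protein, 0.996). Pnpla2 had 795.5 TPM at Day6 and 679 at Day8, so the order of those group means was that of Retn. Lep was closest to Car9 (carbonic anhydrase IX, 0.992), F13a1 (a clotting factor subunit, 0.985) and Lonp1 (a mitochondrial protease, 0.978), and Car9 stood at 0.460 TPM at Day4, 4.28 at Day6 and 18.9 at Day8. Rarres2 was closest to Scp2 (0.996), Naaa (0.995) and Lum (0.994), and Nampt to Narf (0.992), Ppp1r3c (0.991) and the fatty acid transporter Cd36 (0.9897). Adipor2 was closest to Notch1 (a cell surface receptor, 0.978), Disp2 (0.977) and the endothelin receptor Ednra (0.971), each with its highest mean at MCE2 (57.9, 41.3 and 92.4 TPM). As all these genes were picked for a high r with a member, a shared peak or order of group means largely follows from that choice. Among the members, r was 0.997 for Adipoq with Cfd, 0.995 for Rarres2 with Nampt and 0.162 for Adipor1 with Adipor2.

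Genes that act with the adipokines were read from 9 lists at Day8 against Control, where 71.4% of all genes tested were called, 31.7% were called higher and the median log2 change was -0.11. In the list of adiponectin folding and secretion 8 of 12 genes were higher and 3 lower, against 71.4% of all genes called and 31.7% called higher, with a median of 0.43. Ero1l, an oxidase of the endoplasmic reticulum that adiponectin assembly depends on, had 38.1 ± 2.83 TPM in Control, 91.3 ± 6.21 at Day4, 609 ± 30.2 at Day6 and 1524 ± 141 at Day8 (5.28 higher at Day8, adjusted p 4.41e-15). It was still higher at Day8 than at Day6 by 1.32 (adjusted p 4.36e-06), a step at which Adipoq was not called. Plod1, a lysyl hydroxylase, was higher by 2.41, Gstk1 (DsbA-L, which aids adiponectin multimerization) by 1.58, the chaperone Hspa5 by 1.57 and P4hb (protein disulfide isomerase) by 0.56, and Pdia3, another disulfide isomerase, was lower by -0.43.

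In the list of adiponectin receptor signalling 7 of 14 genes tested were higher and 4 lower, with a median of 0.33. The share called is near that of all genes (71.4%, and 31.7% higher). Cdh13, the adiponectin-binding T-cadherin, had 42.4 ± 1.07 TPM in Control, 66.1 ± 0.621 at MCE1, 26.9 ± 1.48 at Day6 and 22.8 ± 1.53 TPM at Day8 (-0.87 against Control, adjusted p 1.23e-08). The adaptor Appl1 was lower by -0.50 (adjusted p 0.000329) and its paralog Appl2 higher by 1.29 (adjusted p 8.93e-09). Asah2, a ceramidase, was higher by 1.34 (adjusted p 5.49e-07). The AMPK subunits Prkag1 and Prkaa1 and the upstream kinase Stk11 (LKB1) were not called (0.07, -0.03 and 0.21). Median-ratio scaling brought calls for Prkag1 (0.20) and Stk11 (0.34) and turned the sign of Prkaa1 (0.10). Stk11 was also called without Day4 replicate 1 (adjusted p 0.0114, with 0.0114 to 0.325 over the alternatives) and on the 6 libraries alone (0.0395).

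Of 6 tested relatives of the receptors in the progestin and adipoQ receptor family 4 were higher and 1 lower (all genes 71.4% called, and 31.7% higher), with a median of 1.47. Paqr4 went from 22.6 ± 1.42 to 194 ± 1.73 TPM (3.04, adjusted p 9.75e-15). Mmd was higher by 1.70, Paqr7 by 1.86 and Paqr5 by 1.23. The last 2 are low, with Control means of 0.327 and 0.197 TPM, and with a pseudocount of 0.1 their differences were 3.31 and 2.69. Paqr7 and Paqr5 passed the filter only through Day4 or later libraries, so it partly fixed that they count as higher than Control. Paqr3 was called lower (-1.45, adjusted p 0.0421), but its 3 Control values had a mean of 2.26 ± 1.81 TPM, the value was -3.65 with a pseudocount of 0.1 and the call held in 18 of 25 alternatives. It ended without Control replicate 2 (adjusted p 0.178), Day8 replicate 1, 2 or 3 (0.0882, 0.0914 and 0.0571) or MCE1 replicate 3 (0.0501), with 0.00912 to 0.178 over the alternatives. Median-ratio scaling (0.0553) and no filter (0.0572) ended it too. Of the C1q and TNF related paralogs of adiponectin 3 of 15 were tested. C1qtnf12 was higher by 3.32 (5.06 ± 0.162 to 59.7 ± 6.92 TPM) and C1qtnf6 by 1.42, and C1qtnf5 stayed under 1 TPM on average in each group.

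Retnla, a relative of resistin, peaked at another stage than Retn. It was listed at 0, 0 and 0.261 TPM in Control, at 101, 101 and 99.1 TPM at MCE1, at 61.1 ± 4.63 at MCE2, 27.8 ± 4.15 at Day4 and 3.85 ± 2.28 at Day6, and at 0 in all 3 Day8 libraries. It was lower at Day6 than at Day4 by -2.70 (adjusted p 2.36e-06), the step at which Retn was higher by 0.99 (adjusted p 5.43e-06). Retnlb and Retnlg were listed at 0 in every library.

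Among receptors and binding partners of leptin, resistin, RBP4 and chemerin 6 of 12 genes were tested, 2 higher and 4 lower (all genes 71.4% called, and 31.7% higher), with a median of -0.69. Dcn (decorin, of which a variant has been named as a resistin receptor) was higher by 3.72 and the lipopolysaccharide receptor Tlr4 by 0.64, and Cap1, another proposed resistin receptor, was lower by -1.73. Rdh10, a retinol dehydrogenase, was lower by -1.08. The leptin receptor Lepr was at most 0.209 TPM in any library and at 0 in all libraries from MCE2 on, and Stra6, the receptor of RBP4, was listed at 0 throughout. The chemerin receptor Cmklr1 had a mean of 1.05 ± 0.679 TPM at Day8 and did not pass the filter.

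Adipsin cleaves factor B when it is bound to activated C3. C3 had 8.997 ± 1.33 TPM in Control, 171 ± 5.60 at MCE1, 1293 ± 58.0 at Day4, 1361 ± 279 at Day6 and 860 ± 106 TPM at Day8 (6.43 higher at Day8 than in Control, adjusted p 2.83e-16). Its level was lower at Day8 than at Day6 by -0.65 (adjusted p 0.00123), a step at which Cfd was higher. Cfb (factor B) stayed at 1.54 to 3.42 TPM by group mean, and its call at Day8 (0.35, adjusted p 0.00972) ended without Control replicate 1 (0.0568), with quantile normalization (0.0797) and on the 6 libraries alone (0.0754), with 0.00209 to 0.0797 over the alternatives. In the list of adipsin's substrates and regulators 2 of 6 genes tested were higher and 2 lower, near the share of all genes called (71.4%, and 31.7% higher), and the list's median was -0.02. The lower genes were Cfp (properdin, -0.50) and the receptor C3ar1. C3ar1 had 2.12 ± 0.134 TPM in Control and was listed at 0 in the 3 Day8 libraries. It passed the filter only through its Control libraries, so the filter partly fixed that it counts as lower.

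For NAD synthesis and use 7 of 10 genes tested were higher and 1 lower, with a median of 0.87. The share called is near that of all genes (71.4%), of which 31.7% were called higher. Nnmt, which methylates nicotinamide, was higher by 2.37 (26.8 ± 2.14 to 145 ± 35.7 TPM), and Nudt12, an NADH hydrolase, by 1.80. Sirt1, an NAD-dependent deacetylase, was lower by -1.39 (12.2 ± 1.93 to 4.01 ± 0.468 TPM). Nmnat2, which acts on the product of NAMPT, had 33.2 ± 3.90 TPM at MCE2 and was not called at Day8 (-0.13). Nadk was called higher (1.14, adjusted p 0.0364) at a level of 2.05 ± 1.55 TPM (2.47 with a pseudocount of 0.1), and the call held in 16 of 25 alternatives. It ended without Control replicate 1 or 3 (adjusted p 0.107 and 0.0641) or Day8 replicate 1 or 3 (0.150 and 0.131), with 0.00243 to 0.150 over the alternatives. It also ended with a pseudocount of 0.1 (0.0648), array weights (0.05225), quantile normalization (0.05605), a replicate block (0.05085) and the 6 libraries alone (0.0547). Day8 replicate 2, at 0.279 TPM, lay within the range of the Control libraries (0 to 0.437 TPM). Nadk passed the filter only through MCE1 and Day8 libraries, so it too was partly fixed to count as higher than Control.

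**Figure D5:**
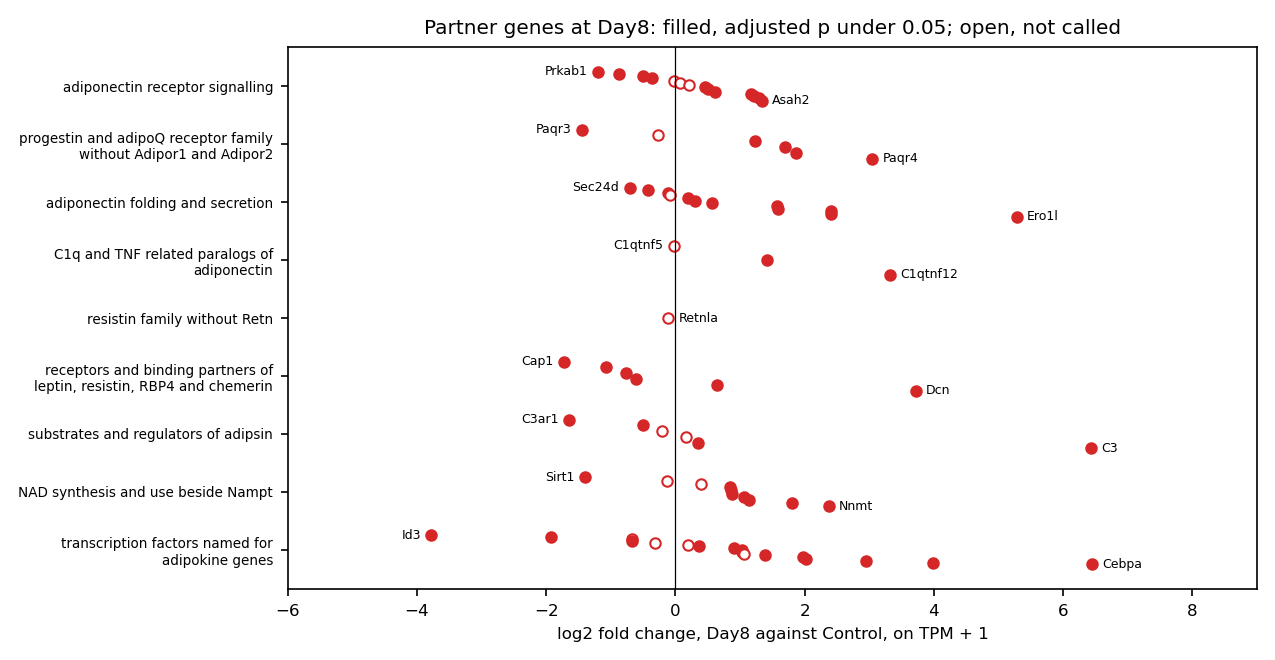
Log2 fold change on TPM + 1 at Day8 against Control (horizontal axis) for every tested gene of the 9 lists (rows), filled where the adjusted p was under 0.05 and open where not, with the lowest and highest gene of each list named. Ero1l (5.28), C3 (6.43) and Cebpa (6.45) lie farthest to the right and Id3 (-3.78) farthest to the left.

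Of the transcription factors named for adipokine genes 10 of 17 tested were higher and 3 lower, with a median of 1.02. Here too the share called is near the 71.4% of all genes, of which 31.7% were called higher. Cebpa (C/EBPα) had 3.57 ± 0.356 TPM in Control, 19.3 ± 1.85 at MCE1, 113 ± 17.2 at MCE2, 182 ± 19.1 at Day4, 351 ± 34.3 at Day6 and 405 ± 96.8 TPM at Day8. By MCE2 Cebpa had reached 28.0% of its highest group mean, when Adipoq stood at 1.69% and Cfd at 2.04% of theirs. Lep stood at 0.593%, Rarres2 at 3.66% and Retn at 10.5%, while Nampt, at 33.2%, was above Cebpa. Cebpb was highest at MCE1 and MCE2 (1021 ± 109 and 1076 ± 71.2 TPM) and lower at Day4 than at MCE2 by -0.96 (adjusted p 0.000123). Rxra, the partner of PPARγ, peaked with Adipor2 at MCE2 (383 ± 19.0 TPM) and was lower at Day4 by -0.73 (adjusted p 4.27e-07). Nr1h3 (LXRα) was higher at Day8 by 3.99 and the inhibitor Id3 lower by -3.78. Pparg was not called in any of the 9 comparisons. It had means of 31.5 TPM in Control, 18.1 at MCE1, 38.6 at MCE2 and 32.25 at Day4. Its libraries of a group stood far apart, at 31.5, 49.2 and 174 TPM at Day6 and at 35.4, 184 and 45.2 TPM at Day8, so the Day8 difference of 1.06 had an SE of 0.61 (adjusted p 0.134) and was 0.34 without Day8 replicate 2. In the same 6 libraries Adipoq read 3111 to 3267 TPM at Day6 and 3518 to 3637 TPM at Day8. No relation between the levels of Pparg and Adipoq was tested.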

How the data were processed

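Polyadenylated RNA was sequenced from 18 libraries of 3T3-L1 cells in 6 groups of 3, taken from the sample titles. The authors deposited 1 table of TPM per library. Per the submitters' processing notes, FastQC, cutadapt, HISAT2 and StringTie were used with the mm9 build. Versions, the annotation, filters and the use of strand are not given in the sources used here. Each table lists 25209 genes, of which 12, none a member, were left out because 1 library (Control replicate 1) places them at another locus. Depth is unknown.

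Values were not rescaled. The filter kept 12695 genes that reached 1 TPM in 3 or more libraries. Their log2(TPM + 1) values entered limma 3.58.1 (R 4.3.3) as a model of 6 group means over 18 libraries, with its trend and robust settings. It had 12 residual degrees of freedom, and the prior ones had a median of 3.18. Fold changes on this scale understate those of low genes. P-values are two-sided and adjusted by the Benjamini-Hochberg method over all genes of a comparison. The fit was tested on simulated data. Ratios were compared by exact permutation over libraries. Alternatives were a pseudocount of 0.1, no filter, a filter of 5 TPM, median-ratio scaling, quantile normalization, a replicate block, array weights, a fit on the 6 libraries compared alone and leaving out each library.

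The members and the gene lists were chosen with earlier results of these data known. Named are all members, for each the 3 most alike genes with a highest mean of at least 10 TPM and a span of at least 1 log2 unit, and from each of 9 lists the 3 with the highest TPM, up to 2 more called with the largest change at Day8, and a fixed panel. Some genes that this rule names are not reported here. No gene is named as alike to Adipor1, whose span is under 1 log2 unit. Of the names in the pathway and marker lists, 8 had no row in the files. The 6 marker lists also cover endothelial cells (summed TPM up to 1.08), hepatocytes (up to 1.09) and housekeeping genes (8872 to 12010). Promoter windows are RefSeq's (GRCm38.p6). Python 3.11.15 with numpy 2.4.6, pandas 2.3.3 and matplotlib 3.10.9 made the tables and plots.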

Additional observations from a re-analysis of the deposited data

How the results depend on the processing

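The counts of members called in the F test and in the 9 comparisons stayed within 1.5 times of their values under every alternative run. With 9 members, a count of 7 or 8 could not rise beyond that limit. The count at Day8 against Day6 was 4. It was 3 with array weights, a filter of 5 TPM or the 6 libraries alone, and 5 with no filter. With no filter Rbp4 entered as the 9th member and was called in the F test and at Day8 against Control and Day6. The count of 30 neighbouring levels called also stayed within that limit and was 29 to 31 when single libraries were left out. The ratio differences and the summed level at Day8 (8847 to 9201 TPM without single libraries) kept their direction. Of 145 comparisons of single genes under 3748 alternative settings, 3679 kept their direction and side of the threshold, 42 lost a call, 13 gained one and 14 changed sign, and the cause of these changes was not tested. The 6 groups share an estimate of the spread, so leaving out a library of another group can move an adjusted p while the difference stays. Adipoq at Day8 against Day6 stayed at 0.1824 without MCE1 replicate 2, where it gained a call. The changes of sign concern small differences. Under median-ratio scaling Adipor1 gave 0.0149 at MCE1 and 0.0571 at MCE2 against Control and 0.0422 at MCE2 against MCE1. At Day8 against Control the same scaling gave 0.1007 for Prkaa1 and 0.0184 for C1qtnf5. Under quantile normalization Adipoq gave -0.0485 for Day8 against Day6, Adipor1 0.0216 for MCE2 against MCE1, Lep -0.056 for Day4 against MCE2 and Prkaa1 0.0602 for Day8 against Control. Prkaa1 gave 0.0163 with array weights and from -0.0956 to 0.0158 when single libraries were left out, and C1qtnf5 gave from -0.4321 to 0.2559. Depth is unknown, so no counting error could be given, and levels near 0 (Lep before Day6, Rbp4) are the least secure.

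Same-numbered libraries of different groups did not deviate together: the correlation of their deviations was -0.074 to 0.093, and 0 of 15 pairs of groups had all 3 over 0.1. With the replicate number as a block, the replicate block, the members called were 6 at MCE1, 7 at MCE2, 7 at Day4, 8 at Day6 and 8 at Day8 against Control, as without it, and 30 neighbouring levels were called. Of the named genes Nadk lost its call at Day8 (adjusted p 0.0508, with 0.00243 to 0.150 over its alternatives).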
